A study of Drosophila melanogaster with 3 samples.

Results

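The 44 protein-coding genes of Drosophila melanogaster whose symbol begins with eIF and a digit, the genes of the translation initiation factors, were examined for binding of Tinman. They were taken by symbol from the 13945 protein-coding genes that the Ensembl annotation places on 6 chromosome arms of dm6. Binding was measured by chromatin immunoprecipitation and sequencing (ChIP-seq) in whole embryos 0 to 16 h old, males and females pooled, of a transgenic line with stable expression of Tinman fused to GFP at its C terminus. Per the description, the precipitation used an antibody against GFP, whereas the labels' antibody entry reads tin. The design had 1 group of 3 biological replicates and no second genotype, treatment or time, so values were compared between genes and between replicates. Tinman is a homeodomain factor of the dorsal mesoderm and heart, so in whole embryos the cells that make it are a minority. The peaks do not tell in which of those cells, or at which age, it was bound.

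Initiation factors bring the initiator tRNA and an mRNA to the small ribosomal subunit. The eIF2 complex delivers the tRNA, eIF2B recharges eIF2 with GTP, eIF3 is the large scaffold on the small subunit, and the eIF4 proteins recognise the cap of the mRNA and unwind its leader. eIF1, eIF1A and eIF5 control the choice of the start codon, and eIF5B joins the large subunit. The symbol rule leaves out NAT1, a relative of eIF4G, and eEF5, the former eIF5A.

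The authors deposited, on dm6, a scored list of entries for each replicate (30000, 30000 and 24711 entries in replicates 1, 2 and 3), another of 30000 for the pooled replicates, and 5508 peaks thresholded by irreproducible discovery rate (IDR peaks). No read counts accompany them and the depth of each replicate is unknown. The score is the peak caller's own value, deposited by the authors, and ranks, with 1 for the highest score, were read within 1 list only.

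Of the 44 genes, 16 (36.4%, Wilson 95% interval 23.8 to 51.1) had an IDR summit within 500 bp of one of their transcription start sites (TSSs), against 24.3% of all protein-coding genes. A further 5 genes had an IDR summit only in the gene body or within 2 kb of it, which made 21 genes (47.7%, 33.8 to 62.1) against 40.6% of all genes. Both intervals, which cover counting error only, held the share of all genes, and no test was made on the list. In the pooled list, 30 of the 44 genes (68.2%) had an entry within 500 bp of a TSS against 52.7% of all genes, and 34 (77.3%) had one anywhere in the window against 74.8%. The promoter share was similar in each replicate. Among the 5508 highest-scoring entries of replicates 1, 2 and 3, 17, 17 and 15 initiation factor genes had a promoter summit, a mean of 16.3 ± 1.15 genes (SD, n = 3), or 38.6%, 38.6% and 34.1%. The same shares over all genes were 25.3%, 22.8% and 23.1%, so the share of initiation factor genes was the higher one in each of the 3 replicates. No pooled entry was found for 10 genes (22.7%, against 25.2% of all genes). They were 4 of the 16 eIF3 genes, 5 of the 13 genes for cap binding and the helicase, and 1 of the 5 eIF2B genes.

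The counts varied between roles, where 24.3% of all protein-coding genes had a promoter IDR peak. Promoter IDR peaks lay at 7 of the 9 genes for the initiator tRNA and the start codon (eIF1, eIF1A, eIF2A, eIF2beta, eIF2gamma, eIF2D and eIF5B), at 6 of the 16 eIF3 genes, at 2 of the 13 genes for cap binding and the helicase, at 0 of the 5 eIF2B genes, and at eIF6. These groups are small, and differences between them were not tested.

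**Figure D1:**
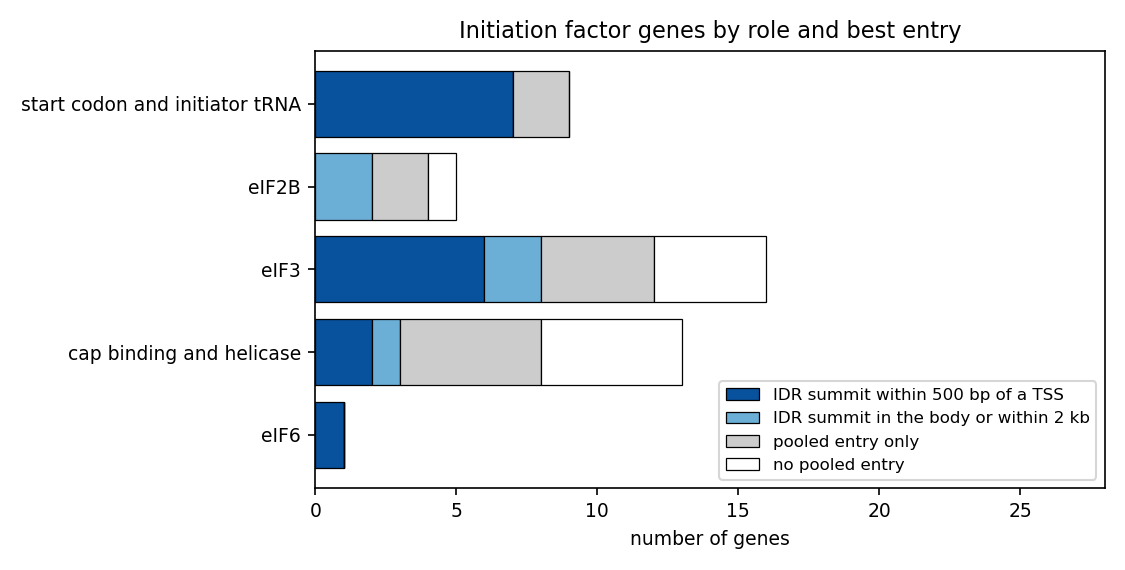
Number of initiation factor genes (x axis) by role (y axis), divided by the best entry of each gene; dark blue stands for an IDR summit at the promoter, light blue for one only in the body or within 2 kb, grey for a pooled entry below the IDR list and white for no pooled entry. The start codon group has 7 of 9 genes in dark blue, and the cap binding group has 5 of 13 in white.

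Among the start codon genes, eIF1, which monitors codon and anticodon pairing, had the highest-scoring peak, on 3L from 3222861 to 3223152 (score 689, IDR rank 483). It ranked 217, 1243 and 572 in replicates 1, 2 and 3, and this was the widest spread relative to its mean among the 21 genes with an IDR peak (677 ± 521, SD, n = 3). Its summit lay 325 bp upstream of eIF1 and 56 bp from the TSS of RpL28, a ribosomal protein gene transcribed the other way. A lower peak, on 3L from 3223188 to 3223374 (IDR rank 2158), had its summit 125 bp upstream of eIF1, the nearest TSS, so the pair of divergent genes carried a peak near each start. The eIF2A peak on 3L from 21824815 to 21825001 (score 379, IDR rank 1496) ranked 1364, 1600 and 2164. Its summit lay in a UTR exon of the longer eIF2A transcript and 45 bp upstream of the inner TSS. The eIF5B peak on 3L from 3460707 to 3460818 (score 379, IDR rank 1498) ranked 1556, 2476 and 976, 126 bp upstream of a TSS and likewise in a UTR exon of the gene. Both genes use an alternative start, and the summits lay between their annotated starts.

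The other start codon genes had peaks of lower rank. The subunit gene eIF2gamma shares its TSS with Su(var)3-9, a histone methyltransferase gene, and its summit on 3R lay 38 bp upstream of both and 56 bp from Set, which points the other way. That peak, from 15263281 to 15263710 (score 234, IDR rank 3085), ranked 2206, 2827 and 5432, and replicate 3 placed it near the end of its top entries. The peaks of eIF2D (score 228, replicate ranks 4451, 3327 and 2866), eIF1A (score 201, ranks 3046, 4809 and 4714) and eIF2beta (score 200, ranks 2751, 4249 and 6081) lay 88, 131 and 275 bp upstream. The TSS of Vps39 was nearer to the eIF1A summit, at 88 bp. Pooled entries below the IDR list were found at eIF2alpha, the subunit phosphorylated under stress (rank 9480), and eIF5, the GTPase activator of eIF2 (rank 11794). No entry of replicate 3 overlapped either of them. The summit of the eIF5 entry lay 383 bp upstream of eIF5 and nearer, at 111 bp, to the divergent start of exd.

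The sequence at the summits varied in words and composition. The DRE word TATCGATA is the core of an element that the factor DREF binds at housekeeping promoters. It lay within 50 bp of the summit at eIF1, eIF2A, eIF2gamma and the scaffold gene eIF3a, which is 4 of the 16 genes with a promoter peak, against 5.04% of all 2716 IDR promoter peaks and 0.258% and 0.295% of windows 500 bp to the left and right of them. The windows to the left and right of the 16 member summits held the word at 0 genes. At eIF1 the word lay 33 bp from the summit, 292 bp upstream of eIF1 and 89 bp from the TSS of RpL28. At eIF2A it lay 40 bp from the summit and 85 bp upstream of the nearest TSS. At eIF3a it lay 20 bp from the summit, 35 bp upstream of eIF3a and 35 bp from the TSS of CG1074. At eIF2gamma 1 word lay 6 bp and another 74 bp upstream of the TSS shared with Su(var)3-9. Of these 4 summits, only that of eIF2A had no start of another gene within 500 bp. The 4 windows follow on the strand of the named gene, read from the RefSeq Release 6 assembly (dm6), with the word in capitals, and show where it stands and that eIF2gamma holds it at both ends.
eIF1, chr3L:3222966-3223066, plus strand: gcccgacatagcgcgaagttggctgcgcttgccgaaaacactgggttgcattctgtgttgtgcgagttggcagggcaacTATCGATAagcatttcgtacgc
eIF2A, chr3L:21824866-21824893, plus strand: tactatcgctTATCGATAcaccgcgtac
eIF2gamma, chr3R:15263446-15263546, minus strand: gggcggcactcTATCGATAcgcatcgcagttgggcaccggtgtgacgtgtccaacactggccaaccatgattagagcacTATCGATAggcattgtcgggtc
eIF3a, chr3R:4433900-4433992, minus strand: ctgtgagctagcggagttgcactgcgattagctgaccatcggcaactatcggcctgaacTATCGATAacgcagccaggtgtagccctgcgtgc

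Base composition at the other 12 summits was mixed. The 101 bp around the summit had less GC than the median of all IDR promoter peaks at 5 of them, which are eIF1A, eIF2D, eIF3c, eIF3m and eIF4EHP. The other 7 had more, among them eIF4A, the most GC-rich of the 16 at 63.4%, and the 4 summits with the DRE word had from 47.5% to 56.4%. GC content was 25.7% at eIF2D and at eIF4EHP and 23.8% at eIF1A. Over the 16 promoter summits GC content ran from 23.8% to 63.4%, with a median of 45.0%, and over all IDR promoter peaks the median was 36.6% (quartiles 29.7 and 44.6). The following windows, with the summit base in capitals, show the runs of A and T at 3 of the AT-rich summits, and that at eIF2Bbeta, the highest-scoring peak of the family.
eIF2D, chr3R:29151832-29151932, minus strand: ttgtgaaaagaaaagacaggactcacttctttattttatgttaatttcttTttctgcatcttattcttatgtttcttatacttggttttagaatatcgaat
eIF1A, chr3R:18274484-18274584, plus strand: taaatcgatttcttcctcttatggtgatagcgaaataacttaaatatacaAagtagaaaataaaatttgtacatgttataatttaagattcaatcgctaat
eIF4EHP, chr3R:24109214-24109314, minus strand: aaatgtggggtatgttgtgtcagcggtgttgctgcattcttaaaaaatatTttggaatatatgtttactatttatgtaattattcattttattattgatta
eIF2Bbeta, chrX:2703825-2703924, plus strand: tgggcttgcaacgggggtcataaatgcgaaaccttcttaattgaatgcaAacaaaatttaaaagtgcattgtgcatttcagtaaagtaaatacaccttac

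The Tinman words TCAAGTG and TTAAGTG were each within 50 bp of 0 of the 16 promoter summits, and of 1.14% and 2.14% of all IDR promoter peaks. In windows 500 bp to the left and right of all those peaks, TCAAGTG was at 1.22% and 1.62% and TTAAGTG at 1.51% and 1.36%. The word TTAAGTG lay near the summit of 1 further IDR peak, that of eIF3g1. Of the other words searched on both strands, GGTCACACT (a core promoter word), CACGTG (an E-box) and GAGAGAG were at 0 of the 16 summits and at 1.99%, 1.14% and 1.40% of all IDR promoter peaks, and TATAAA was at 1, that of eIF6, against 17.6%. With so few summits, these shares say little, and all the words of this paragraph but TATAAA are rare everywhere. In the 300-bp promoters, from 250 bp before to 50 bp after any TSS, on either strand, the DRE word was present at 7 of the 16 genes with a promoter IDR peak and 6 of the other 28, against 17.6% and 7.77% of all genes with and without one.

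The TCT initiator, which replaces the usual initiator at ribosomal protein genes, was searched as NNCTTTNN with every N being C or T, on the sense strand and starting within 10 bp of a TSS. A match to this word was present at 6 initiation factor genes, which are eIF1A, eIF3c, eIF3e, eIF3f1, eIF3l and eIF3m. It was also present at 72 of 93 ribosomal protein genes, and at 236 of all 13945 genes (1.69%). The word began 8, 7, 6, 2 and 10 bp after the TSS at eIF1A, eIF3c, eIF3e, eIF3f1 and eIF3l, and 6 bp before it at eIF3m. These are matches near an annotated start and are not shown to be initiators. Of the 6 genes, 5 encode eIF3 subunits, and 3 (eIF1A, eIF3c and eIF3m) had a promoter IDR peak, against 108 of the 236 genes with the word (45.8%) and 55 of the 164 outside the ribosomal protein list (33.5%). The following starts are those of the 3 genes with the word and no IDR peak. They are written 5′ to 3′ on the gene's strand from 25 bases before the TSS, with the TCT word in capitals. All 3 hold the run CTTTTC, but the search itself requires CTTT followed by C or T, so this likeness is largely set by it. A DRE word precedes the TCT word at eIF3f1 and eIF3l.
eIF3e, chr3L:16786924-16786966, minus strand: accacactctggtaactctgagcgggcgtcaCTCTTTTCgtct
eIF3f1, chr3R:4714165-4714207, minus strand: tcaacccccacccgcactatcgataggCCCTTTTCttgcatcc
eIF3l, chr3L:12146080-12146122, minus strand: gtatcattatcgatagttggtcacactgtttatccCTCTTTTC

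Summits at initiation factor promoters lay mostly just upstream of the start. Of the 16, 15 were upstream of the nearest TSS of the gene and 12 lay from 38 to 140 bp upstream, with a median distance of 92.5 bp. Among all 3390 genes with a promoter IDR peak, 90.4% had an upstream summit, 48.8% had it within 150 bp upstream, and the median distance was 131 bp. The exception was eIF3h, whose summit lay 278 bp downstream in its own intron. The farthest upstream, at 304 and 325 bp, were eIF4EHP and eIF1, whose summits were nearer to divergent neighbours, and the nearest IDR summit outside the limit of 500 bp was that of eIF2Bbeta at 697 bp.

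**Figure D2:**
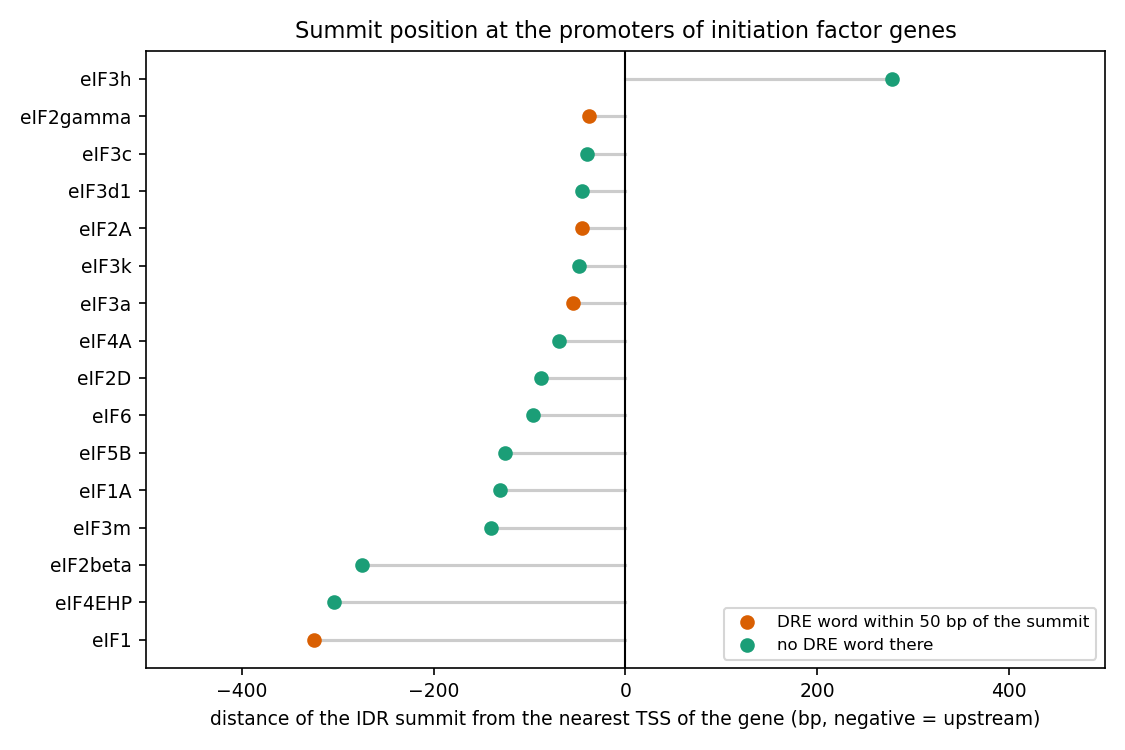
Distance in bp of the IDR summit from the nearest TSS of the gene (x axis, negative upstream) for the 16 initiation factor genes with a promoter IDR peak (y axis); orange points have a DRE word within 50 bp of the summit. All but eIF3h lie to the left of the start, and the 4 orange genes are eIF1, eIF2A, eIF2gamma and eIF3a.

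Some of these peaks were shared with neighbours, which was not particular to the family. A TSS of another protein-coding gene lay within 500 bp of the summit at 7 of the 16 genes, against 59.8% of all genes with a promoter IDR peak, and no such TSS was found at 9. The TSS of the initiation factor gene itself was the nearest, or tied for it, at 11 of the 16, against 71.0% of all such genes. The other 5 (eIF1, eIF1A, eIF3a, eIF3m and eIF4EHP) had a nearer start of a divergent gene, so their peak cannot be told apart from one of that neighbour.

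The eIF2B genes, whose products exchange GDP for GTP on eIF2, had no IDR summit within 500 bp of their own starts. The peak assigned to eIF2Bbeta, on X from 2703648 to 2704132, was the second of all 5508 (score 4802, replicate ranks 2, 1 and 2), but it lay 22 bp from the start of Ugalt, which is divergent from eIF2Bbeta. The peak assigned to eIF2Bgamma, on 2R from 15541272 to 15541487 (score 408, IDR rank 1334, replicate ranks 856, 1854 and 2361), lay 1283 bp upstream of it and 15 bp from CG8187, with the TSS of Vha36-1 at 57 bp. At the eIF2Bgamma start itself the best pooled entry ranked 13454. The genes eIF2Bdelta and eIF2Bepsilon had promoter entries of pooled rank 7917 and 13048, 116 and 55 bp upstream, with the divergent starts of roh and Ocrl nearer at 26 and 52 bp. The first of them, on 2R from 23386190 to 23386619 (score 107), ranked 5427 and 5646 in replicates 1 and 2, and no entry of replicate 3 overlapped it. The gene eIF2Balpha, which encodes a regulatory subunit, had no entry in the pooled list or in any replicate list.

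Of the eIF3 genes, eIF3c had the highest peak at a promoter of its own, on 2R from 17665482 to 17665815 (score 584, IDR rank 662, replicate ranks 795, 902 and 458), with the summit 40 bp upstream and no other start within 500 bp. The eIF3h peak on 2L from 5052343 to 5052611 (score 514, IDR rank 881) varied little between replicates, with ranks 922, 1054 and 1041, and a second IDR peak (rank 2222) lay 16 bp from its TSS. The scaffold subunit gene eIF3a had a narrow peak on 3R from 4433891 to 4434039 (score 317, IDR rank 1980) at ranks 2184, 2190 and 2053, the closest replicate ranks of the family relative to their mean. It lay 55 bp upstream of eIF3a and 15 bp from the divergent CG1074.

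The remaining eIF3 peaks were weaker or less even. The eIF3m peak (IDR rank 2283) ranked 2495, 1999 and 1954 and lay 86 bp from CG8323. The eIF3d1 peak on 3R from 23679779 to 23680208 (score 177, IDR rank 4436) ranked 5081, 9002 and 3655, 45 bp upstream with no other start nearby, so replicate 2 placed it outside its 5508 top entries. The eIF3k peak (score 154, IDR rank 5218, replicate ranks 6554, 4813 and 5039) was the lowest of the 21 best peaks, near the lowest score of the list, 147. The IDR peak of eIF3g1 on X from 2608844 to 2609085 (score 343, IDR rank 1746) had its summit 1385 bp downstream of the start and 75 bp from that of Smyd3. It ranked 3372, 1652 and 1163 in replicates 1, 2 and 3, lowest in replicate 1. The IDR peak of eIF3j on 2R from 9970981 to 9971410 (score 177, IDR rank 4438) lay 2132 bp downstream and 53 bp from CG12134. It ranked 2783, 7430 and 7820, highest in replicate 1.

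Of the eIF3 genes below the IDR list, eIF3f1 came closest, with a pooled entry on 3R from 4714027 to 4714456 (score 138, pooled rank 5929) and its summit 60 bp upstream. Replicates 1 and 2 ranked it 4177 and 4835, inside their 5508 top entries, and no entry of replicate 3 overlapped it. The RNA-binding subunit gene eIF3b had a pooled entry on 2R from 17535676 to 17536105 (score 117, pooled rank 7176), 322 bp upstream and 25 bp from the divergent gene Patronin, and ranked 10691, 6688 and 8260 by replicate. The entries of eIF3e and eIF3l ranked 9664 and 17790. The WD-repeat subunit gene eIF3i had no pooled entry, and none was found at the additional copies eIF3d2, eIF3f2 and eIF3g2. Of their counterparts, eIF3d1 had a promoter IDR peak and eIF3f1 the pooled entry. For eIF3g1 the only pooled entry was the peak near Smyd3, so none lay within 500 bp of its own start.

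In the cap binding group, the peak of eIF4EHP stood far above the rest. The gene encodes a cap-binding repressor that competes with eIF4E, and its peak on 3R from 24108923 to 24109426 (score 1327, IDR rank 98) ranked 88, 118 and 89. The summit lay 304 bp upstream of eIF4EHP and 72 bp from CG18428. In introns of this long gene, IDR peaks of rank 1025 and 2332 lay 9833 and 2542 bp downstream of the TSS with no protein-coding start within 500 bp. The helicase gene eIF4A had a promoter peak on 2L from 5982310 to 5982739 (score 202, IDR rank 3754, replicate ranks 4529, 3113 and 3676), 69 bp upstream of an inner TSS and in a UTR exon of a longer transcript. The peak assigned to eIF4G2 (score 157, IDR rank 5095) lay 1297 bp upstream of it and 58 bp from the divergent CG34355, and at the eIF4G2 start a pooled entry ranked 6090.

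The genes of the cap-binding protein eIF4E had no IDR peak. The main one, eIF4E1, had a promoter entry on 3L from 9402272 to 9402701 (score 91.1, pooled rank 9467) with its summit 27 bp upstream, and replicates 1, 2 and 3 ranked the overlapping entry 7306, 29498 and 7414, so replicate 2 placed it near the end of its 30000 entries. The copies eIF4E3, eIF4E4, eIF4E6 and eIF4E7 had no pooled entry, and that of eIF4E5 (rank 20100) lay 1870 bp from its TSS in a coding exon of pbl. The scaffold gene eIF4G1 and the helicase cofactor genes eIF4H1 and eIF4H2 had pooled entries of rank 15326, 20017 and 6318, and the cofactor gene eIF4B had no entry in any list. The entry at eIF4H2, on 3R from 30729033 to 30729462 (score 131), lay 3161 bp downstream of its TSS and ranked 9559, 6939 and 5953, outside the top entries of every replicate.

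The gene eIF6, whose product keeps the ribosomal subunits apart, had the strongest IDR peak of the family with its own start nearest. The peak on 2R from 23850221 to 23850572 (score 1211, IDR rank 118) ranked 134, 155 and 90 in replicates 1, 2 and 3. Its summit lay 97 bp upstream of eIF6, in an intron of ytr.

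**Figure D3:**
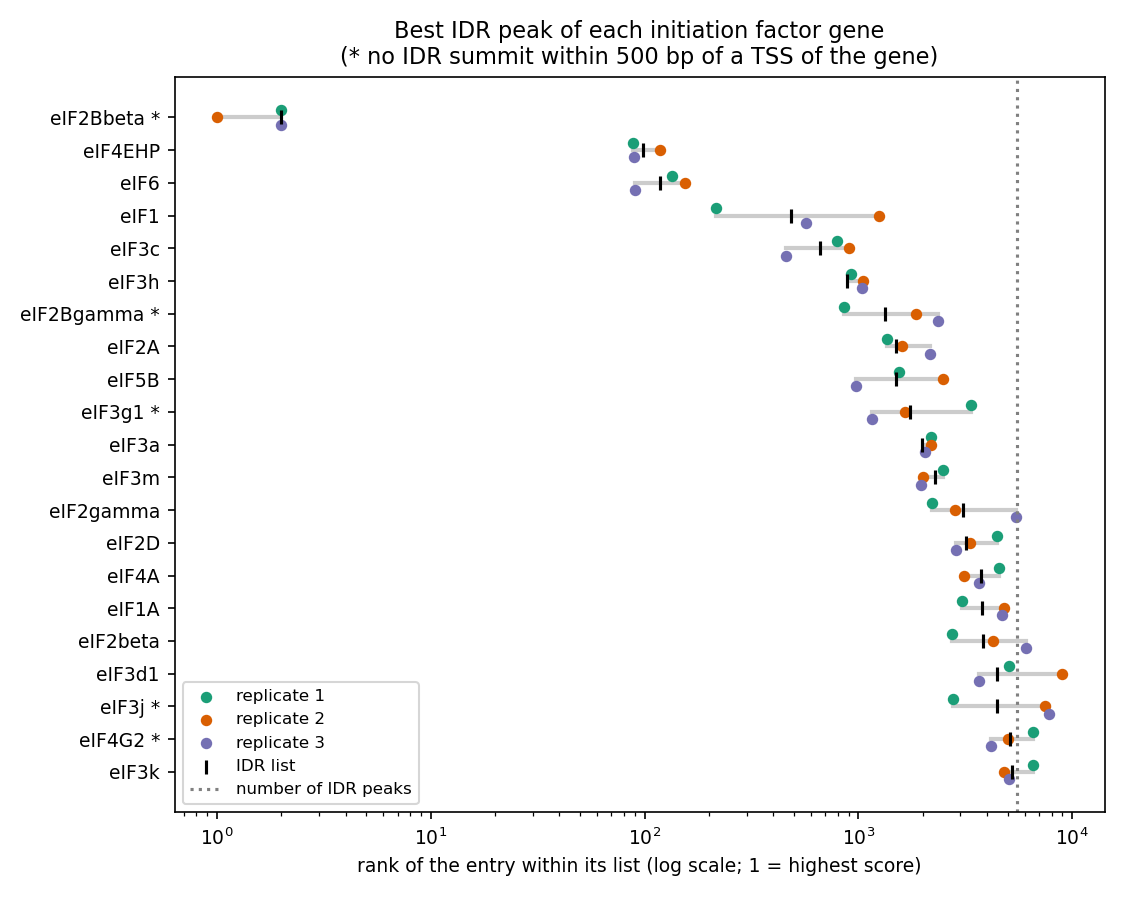
Rank of the best IDR peak of the 21 initiation factor genes (y axis) in the IDR list (black bars) and of the best overlapping entry in each replicate (coloured points, set apart vertically for sight), on a logarithmic x axis where 1 is the highest score; the dotted line marks rank 5508. The peaks of eIF2Bbeta, eIF4EHP and eIF6 rank at or under 155 in every replicate, and points right of the line belong to eIF2beta, eIF3d1, eIF3j, eIF4G2 and eIF3k.

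Over the family, the ranks were spread through the IDR list. The median IDR rank was 2132 for the 16 genes with a promoter peak, against 2216 for all 3390 such genes, and 7 of the 21 best peaks ranked 1377 or better, where the first of 4 equal parts of the list ends, with 5, 5 and 4 in the parts after it. Of these 21 peaks, 16 were overlapped by a top entry of all 3 replicates, 4 by one of 2 replicates, and that of eIF3j by one of 1 replicate, replicate 1. Among all IDR peaks, 72.5% had a top entry in all 3. The list was made from the same replicates, so these counts describe it and do not test it.

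Other genes of translation were set beside the family. Of 9 elongation and termination genes, 6 (66.7%, Wilson 95% interval 35.4 to 87.9) had a promoter IDR peak, against 24.3% of all genes. Among the 6 were eEF1gamma (rank 498), the release factor genes eRF1 (rank 1013) and eRF3 (rank 1421), and eEF1alpha1 (rank 1057), which delivers aminoacyl-tRNA. Of 16 regulators and partners of initiation, 7 (43.8%, with an interval of 23.1 to 66.8 that held the share of all genes) had one. These were pAbp, the poly(A)-binding protein (rank 975), mTor (rank 1294), pix (rank 2376), NAT1 (rank 2610), Thor, the repressor of eIF4E (rank 2712), bel (rank 3463) and MCTS1 (rank 4309). The kinase gene Lk6, whose product phosphorylates eIF4E, had no promoter IDR peak. An IDR peak of rank 14 had its summit 963 bp upstream of the nearest Lk6 start, and starts of other genes near it were not searched. Within 500 bp of an Lk6 start the best pooled entry ranked 6251. The eIF2alpha kinase genes PEK and Gcn2 had no IDR peak. Of 93 cytoplasmic ribosomal protein genes, 65 (69.9%, Wilson 95% interval 59.9 to 78.3) had a promoter IDR peak. This share was higher than the 36.4% of the initiation factors, a difference that was not tested. The share of ribosomal protein genes varied more between replicates, at 78.5%, 52.7% and 58.1% (mean 63.1% ± 13.6, SD, n = 3), against 37.1% ± 2.62 for the initiation factors.

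**Figure D4:**
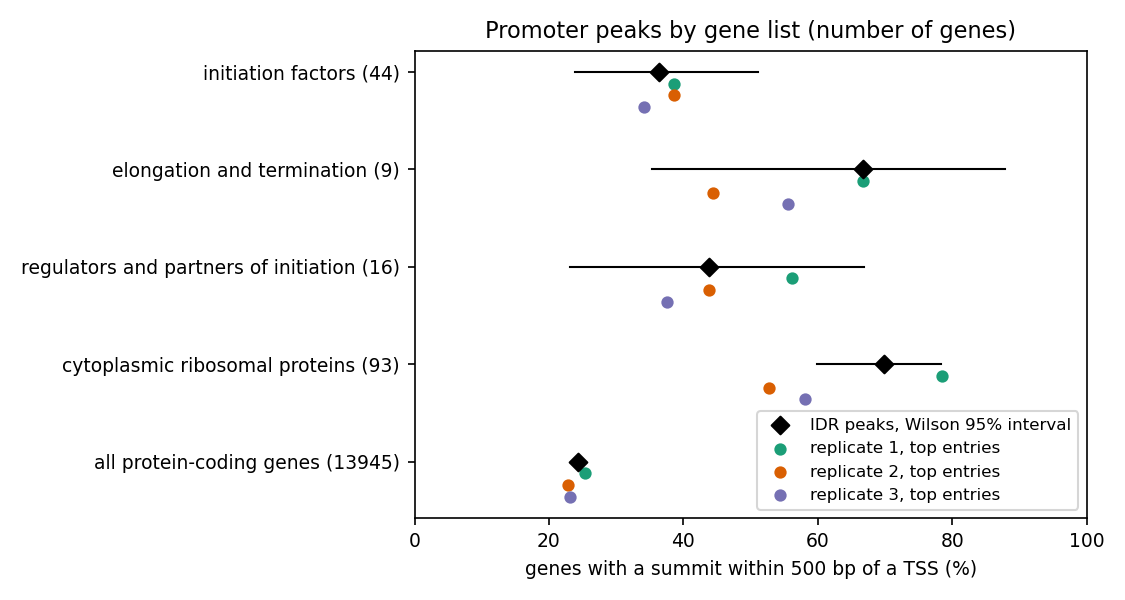
Percentage of genes with a summit within 500 bp of a TSS (x axis) for 5 sets of genes (y axis, number of genes in brackets); diamonds are IDR peaks with Wilson 95% intervals and coloured points are the 5508 highest-scoring entries of each replicate. The initiation factors lie between 34.1% and 38.6%, above all genes and below the ribosomal proteins in every replicate.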

How the data were processed

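Per the labels, sonicated chromatin of 200 to 800 bp from 3 biological replicates was sequenced after immunoprecipitation. The scores that the authors deposited, in narrowPeak lists on dm6, were made by peak calling on aligned reads against a control, per the notes deposited with the samples, and the other lists served as input for the IDR list. Of the aligner, caller, score normalization and IDR cutoff, the sources used here give none. As an alternative ranking only, −log10 q values deposited for the replicates were taken, which in the IDR list are constant at 4.05. Lists on dm3 were not used.

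Genes came from Ensembl release 115 (BDGP 6.54) and sequence from RefSeq Release 6, the same build. For each list, a gene took its highest-scoring entry with a summit within 500 bp of a TSS, else in its body or within 2 kb. A replicate's rank is that of its best entry overlapping the peak by at least 1 bp. Top entries are the 5508 highest-scoring of a replicate. Words were searched in 101-bp windows. No entry was assigned a p-value, and no test was made across genes. Python 3.11.15 and scipy 1.17.1 were used. The assignment was tested on simulated data with 200 planted summits, of which 200 were recovered.

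Full values were given by rule for the 10 genes with the best IDR ranks, the 5 with the largest spread of replicate ranks and the 5 best without an IDR peak. Positions, scores or ranks of further genes were added after their values were seen. Membership follows the symbol, but the family, the other gene lists and the sequence words were chosen with earlier results of these data known, so their counts, those of the DRE and TCT words included, are descriptions. Tor is listed as mTor in the annotation.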

Additional observations from a re-analysis of the deposited data

How the results depend on the processing

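The number of initiation factor genes with a promoter IDR peak (16) ran from 12 to 17 with a promoter limit of 250 bp (14) or 1000 bp (17), with the most 5′ TSS of each gene (15) and with a peak given only to the nearest TSS (12). The share of all genes then ran from 18.1% to 27.6%. In the higher-scoring 2754 peaks it was 9, against 14.4% of all genes. Without 1 of the replicates, where an IDR peak had to be among the top entries of both others, it was 14 each time. This filter can remove genes but cannot add any, so all 14 were necessarily among the 16. Without replicate 1 the calls for eIF2beta and eIF3d1 were lost, without replicate 2 those for eIF2beta and eIF3k, and without replicate 3 those for eIF3d1 and eIF3k. The share of all genes fell to between 19.1% and 20.2%. The number with any IDR peak (21) was 18 to 20 without a replicate, 19 with a window of 1000 bp, 14 in the higher-scoring peaks and 5 without any window around the gene, since most summits lie upstream of the start. The median rank of 2132 was 2333 in replicate 2, and 2049 to 2217 without a replicate. Support by 3 replicates (16 of 21) was 15 when an overlap of at least 50% of the peak was required and 21 among all deposited entries. The DRE word was at 6 of 16 summits within 100 bp (9.39% of all IDR promoter peaks) and, shortened to ATCGAT, at 5 (12.3%). No paired analysis was possible because there is 1 group. Lists without read counts give no depth, so a missing entry does not show that binding is absent.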

Other observations

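Windows of 10 initiation factor genes held more than 1 IDR peak, and the 21 genes had 35 distinct IDR peaks in all. The same count was not made over all genes, so it does not set the family apart. Most of the additional peaks sat at starts of neighbours. A peak of rank 587 within 2 kb of eIF3d1 lay 105 bp from GILT2, and a peak of rank 773 within 2 kb of eIF2beta lay in an intron of ver and 197 bp from Gcn5, and both scored above the promoter peak of the initiation factor gene itself. At eIF5B, IDR peaks of rank 1643 and 1782 lay in introns, 27785 and 21980 bp downstream of its nearest start.

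Of the 10 initiation factor genes without a pooled entry, 7 had an entry in a replicate list. The best of these, at eIF4E3 in replicate 3, ranked 12544, and the others ranked from 19856 (eIF4E4, replicate 3) to 28640 (eIF4E6, replicate 1).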
